A study of Mus musculus with 2 samples.

Results

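The genes described here are 35 genes of glycolysis and of the response to low oxygen, chosen by name for their function and read in RNA from the eye cups of mice. Each gene took the probe set (the group of probes that reads a transcript) with the highest mean of both arrays, among those carrying its symbol alone and leaving out the manufacturer's control sets. Of the 35 genes, 32 had such a probe set, out of 18193 genes on the array. Gpi1 and Eno1 had none in the annotation used, and Gapdh was read alone only by control sets. To count as measured, a gene had to reach the median of the non-control sets (the floor) on at least 1 array, that is 94.2 for wild type or 93.4 for Mfsd2a KO, and 29 of the 32 genes did.

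The study set eye cups of Mfsd2a KO mice beside those of wild-type mice, both at postnatal day 13. Mfsd2a encodes a transporter that takes lysophosphatidylcholine with docosahexaenoic acid into brain and eye. RNA of 6 animals was pooled in equal amounts for each genotype and each pool was put on 1 array, so the series has 2 arrays. The eye cups had been freed of cornea, lens and optic nerve. The labels give neither the strain, the sexes in a pool nor the deleted part of Mfsd2a, and no agent was given to either group. Because each genotype has only 1 array, the spread between samples is unknown, no test was possible, and each value below describes a pair of pools. Precision is limited by having 2 arrays.

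Glycolysis splits glucose into pyruvate in the cytosol, and lactate dehydrogenase can turn that pyruvate into lactate. The retina is known for making lactate even where oxygen is present, most of it in photoreceptors, and for exporting it through monocarboxylate carriers to the pigment epithelium and glia. When oxygen is low, the prolyl hydroxylases that mark HIF alpha subunits for destruction slow down, and HIF binds short DNA motifs near many genes of glycolysis and of oxygen supply.

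Most of the glycolysis genes of the list had slightly lower values in the pool labelled Mfsd2a KO, whereas the hypoxia targets outside glycolysis differed less and Ndrg1 was higher. Of the 20 measured glycolysis genes 18 were below 0 on the log2 scale (the array labelled Mfsd2a KO minus wild type), with a median log2 difference of -0.11, or 7.14% lower. Among them, all 16 carriers and enzymes were below 0, and the 2 genes above 0 were regulators; isoforms outside the list, given further on, were on both sides of 0. Of all 29 measured genes 25 were below 0, beside 42.4% of all 11568 measured genes, whose median was 0.014. The list was chosen by function but with earlier results of these data known. How far that choice shaped these counts was not tested. The differences are small: Hk2 was the only measured gene of the list at least 1.2-fold lower, beside 1.17% of all measured genes, and 0 were at least 1.2-fold higher, beside 1.79%. At a size of 1.5-fold 0 were lower, beside 0.0864%, and 0 higher, beside 0.138%.

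At the smaller size of 1.1-fold, chosen after the values were seen, 7 of the 29 were lower (beside 6.6% of all measured genes) and 1 was higher (beside 9.83%). The 7 were Hk2, Slc16a1, Pfkl, Pgk1, Pdk1, Pgam1 and Ddit4, and the 1 was Ndrg1. A difference of -0.05 or lower on the log2 scale was reached by 19 of the 29 genes, beside 23.6% of all measured genes, and of 0.05 or higher by 3, beside 33.9%. The only error that can be computed is technical, the spread between probe sets of the same gene, whose SD of the log2 difference was 0.089 over the measured sets. All sets of a gene read the same pools and arrays, so an error shared by a whole pool or array is not in this SD. Of the 29 genes 13 were lower by at least that SD, beside 13.4% of all measured genes, and 1 was higher by at least as much, beside 20.3%.

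**Figure D1:**
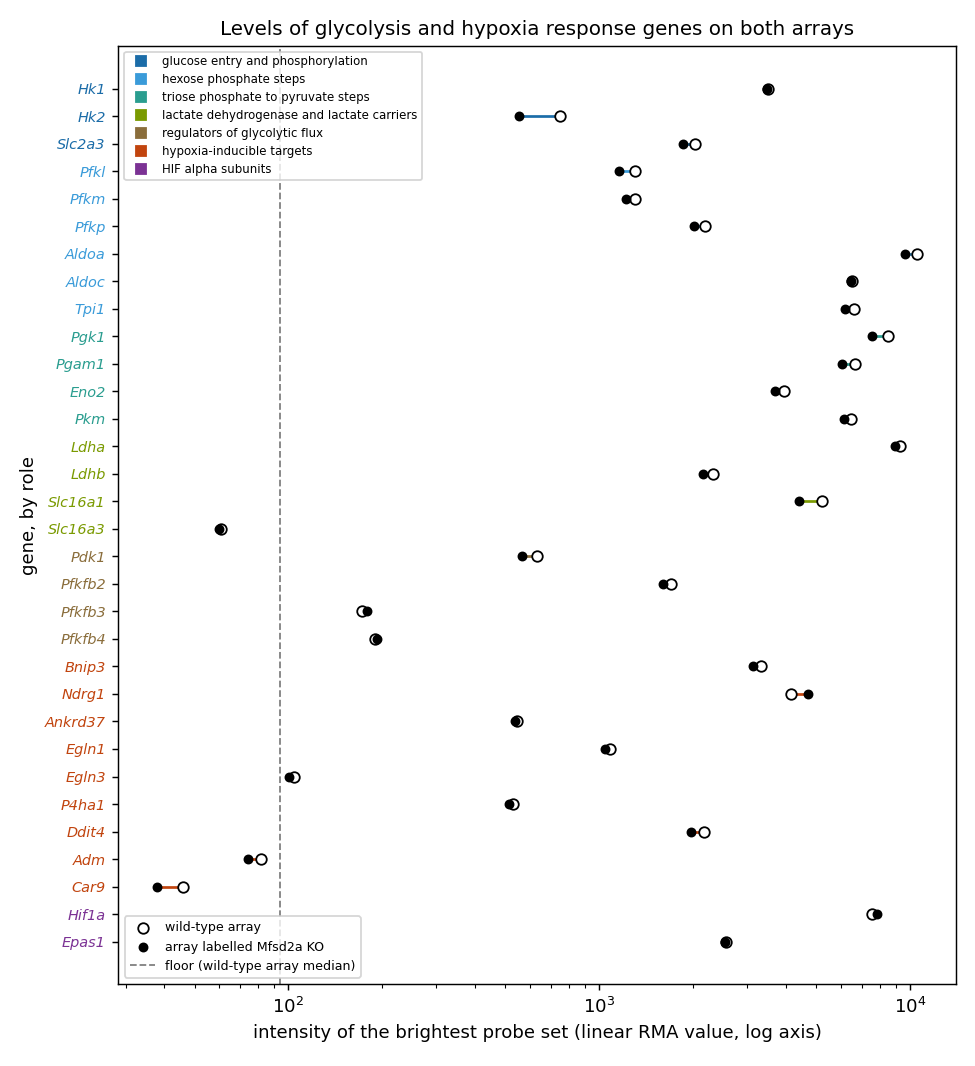
Intensity of the brightest probe set (linear scale as deposited, log axis) for the wild-type array (open circles) and the array labelled Mfsd2a KO (filled circles) for the 32 genes with a probe set, ordered and coloured by role; the dashed line is the floor on the wild-type array, 94.2. The filled circle lies left of the open circle for most genes, farthest for Hk2 among measured genes, and right of it for Ndrg1.

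The promoters are shown because HIF is known to act on many genes of glycolysis through a short core motif. RefSeq promoter windows (GRCm38.p6) were found for 32 of the 35 genes, with 47 start sites in all; Slc2a3, Ndrg1 and Epas1 were not matched. The 250 bases before each start were searched for ACGTG and GCGTG on both strands, so that CACGT and CACGC count as well and CACGTG counts on each strand. The 4 measured genes with the largest negative differences are given first, followed by the 2 windows with the most motif matches, those of Bnip3 and of 1 of the 2 starts of Ldha. Each runs from 5′ to 3′ along the gene, ends at the base before the start, and has the motif matches in capitals.
Hk2 (chr6:82774455-82774704, minus strand): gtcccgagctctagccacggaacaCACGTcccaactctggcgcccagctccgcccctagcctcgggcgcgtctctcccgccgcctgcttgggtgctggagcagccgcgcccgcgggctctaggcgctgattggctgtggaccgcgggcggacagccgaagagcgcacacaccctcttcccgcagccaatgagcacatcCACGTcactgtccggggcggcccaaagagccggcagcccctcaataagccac
Slc16a1 (chr3:104638414-104638663, plus strand): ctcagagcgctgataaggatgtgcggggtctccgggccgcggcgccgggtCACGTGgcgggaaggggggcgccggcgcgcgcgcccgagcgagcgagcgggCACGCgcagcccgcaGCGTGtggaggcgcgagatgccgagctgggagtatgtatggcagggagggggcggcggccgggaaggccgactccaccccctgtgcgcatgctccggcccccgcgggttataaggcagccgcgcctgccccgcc
Pfkl (chr10:78009808-78010057, minus strand): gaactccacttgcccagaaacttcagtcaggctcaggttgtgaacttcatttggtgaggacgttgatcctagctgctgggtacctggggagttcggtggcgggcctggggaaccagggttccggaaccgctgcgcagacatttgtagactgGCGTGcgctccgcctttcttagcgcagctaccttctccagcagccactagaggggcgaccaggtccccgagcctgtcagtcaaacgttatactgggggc
Pgk1 (chrX:106186850-106187099, plus strand): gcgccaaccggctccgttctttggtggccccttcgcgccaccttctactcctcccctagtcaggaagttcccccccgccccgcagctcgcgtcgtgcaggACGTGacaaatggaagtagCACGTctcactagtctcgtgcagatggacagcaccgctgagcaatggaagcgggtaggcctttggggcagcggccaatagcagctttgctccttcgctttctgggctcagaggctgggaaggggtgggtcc
Ldha (chr7:46845554-46845803, plus strand): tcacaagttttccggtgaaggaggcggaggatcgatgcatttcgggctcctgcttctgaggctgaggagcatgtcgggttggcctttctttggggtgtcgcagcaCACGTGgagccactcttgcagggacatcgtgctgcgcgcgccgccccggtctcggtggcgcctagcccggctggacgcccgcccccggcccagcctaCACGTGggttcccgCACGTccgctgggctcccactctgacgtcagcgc
Bnip3 (chr7:138909507-138909756, minus strand): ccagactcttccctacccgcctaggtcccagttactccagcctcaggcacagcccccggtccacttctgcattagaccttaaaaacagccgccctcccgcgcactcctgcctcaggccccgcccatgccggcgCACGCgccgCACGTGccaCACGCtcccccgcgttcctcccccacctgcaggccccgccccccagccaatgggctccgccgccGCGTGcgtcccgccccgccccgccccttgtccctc

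A match to ACGTG or GCGTG stood in 39 of the 47 windows (83.0%), beside 38.6% of all 32851 promoter windows of this length and 55.7% of the 12111 windows of measured genes. Their base composition was close to that of measured genes, with a median GC content of 60.4% beside 60.0%. ACGTG alone stood in 23 of the 47 windows (48.9%), beside 16.6% of all windows and 21.6% of those of measured genes. Some windows of the same gene overlap, so that a site can count more than once. By gene, 29 of 32 had a match to either motif, beside 5824 of 9368 measured genes with a window. For ACGTG alone the counts were 19 of 32, beside 2395 of 9368. All 8 windows of hypoxia-inducible targets held a match to either motif, and 30 of the 38 windows of glycolysis genes did. Pgk1, a textbook HIF target, had 2 matches and Hk2 also had 2, all of the ACGTG kind; Slc16a1 had 4 and Pfkl had 1. Ldha (log2 difference -0.057) and Bnip3 (-0.079) had 5 each in the windows shown. Members with ACGTG had a median log2 difference of -0.079 (15 of 17 measured below 0) and members without it -0.10 (8 of 9 below 0). With either motif counted, 21 of 24 measured members with a match were below 0 (median -0.082), as were 2 of 2 without. A match describes letters in a window and does not show that a factor binds there. The list was chosen by name for glycolysis and the response to low oxygen, and it holds known HIF targets. An excess of the motif may therefore follow from that choice alone, and it says nothing about these arrays.

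Glucose enters the path through carriers and is trapped by hexokinase. Slc2a3, the high-affinity glucose carrier of neurons, read 2030.2 in the wild-type pool and 1868 in the pool labelled Mfsd2a KO (from here the KO-labelled pool), a log2 difference of -0.12. Its second measured probe set differed by -0.069, and its remaining 2, both below the floor, by 0.32 and 0.18. The measured sets thus shared a sign that the dim ones did not.

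The hexokinases differed from each other more than any other isoforms of a step. Hk2, the inducible hexokinase found in photoreceptors, read 750.1 in the wild-type pool and 555 in the KO-labelled pool, a log2 difference of -0.44 (1.35-fold lower). Only 0.225% of measured genes had a lower difference. Hk1, the hexokinase of most tissues and of neurons in general, read 3484 and 3459 (-0.010), with -0.073 in its other set. The Hk2 difference rests on 1 probe set, so it has no second reading. The gap between the log2 differences of Hk1 and Hk2 was 0.43, several times the SD between sets of a gene.

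In the hexose phosphate steps all 6 measured genes were below 0, with a median of -0.11. Phosphofructokinase, which commits glucose to glycolysis, is built from liver (Pfkl), muscle (Pfkm) and platelet (Pfkp) subunits. Pfkl read 1306 and 1158, a log2 difference of -0.17, and its 3 probe sets ran from -0.23 to -0.17. Pfkp read 2200.1 and 2026 (-0.12), and its 3 sets from -0.22 to -0.12. Pfkm, with 1 set, read 1310.2 and 1217 (-0.11). All 7 probe sets of the phosphofructokinase genes were therefore lower, and the subunits differed from each other by less than the SD between sets of a gene.

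Aldolase splits the hexose, and its isoforms did not differ alike. Aldoa, the form of muscle and most other cells, read 10577 in the wild-type pool and 9619 in the KO-labelled pool (-0.14), with all 5 of its probe sets between -0.18 and -0.14. The names of all 5 end in _x_at, so Aldoa had no value when such sets were left out. Aldoc, the form of brain and retina, read 6528 and 6464 (-0.014). A second set of Aldoc, below the floor, differed by 0.47. Tpi1, which interconverts the triose phosphates made by aldolase, read 6626 and 6183 (-0.10), and its 3 sets lay between -0.10 and -0.055.

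The steps from triose phosphate to pyruvate gave 4 measured genes, all below 0, with a median of -0.12. Pgk1, which makes the first ATP of the path, read 8497 and 7571 (-0.17), and its 3 probe sets ran from -0.17 to -0.10. Pgk1 lies on the X chromosome, and sex-linked transcripts differed between the pools: Xist differed by -0.70 and the Y-linked Uty by 1.01. Their part in the Pgk1 value was not tested. Pgam1, phosphoglycerate mutase, read 6681 and 6049.7 (-0.14). Eno2, the neuronal enolase, read 3928 and 3696 (-0.088), and Pkm, pyruvate kinase, read 6475 and 6159 (-0.072). Both pyruvate kinase splice forms share the gene, and its 1 probe set was not assigned to a form here. Gapdh was read only by 3 control sets along its transcript, which differed by 0.014, -0.025 and -0.032 from the 5′ to the 3′ end. These control values are smaller than the difference of any of the 4 measured genes of this stretch.

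Lactate is made by lactate dehydrogenase and leaves or enters cells through monocarboxylate carriers. Ldha, the subunit that favours lactate formation, read 9285 and 8927 (-0.057), and Ldhb, the subunit that favours its use, read 2331 and 2163 (-0.11), with 4 probe sets between -0.14 and -0.048. The subunits differed from each other by 0.051, less than the SD between sets of a gene. Slc16a1, the carrier MCT1 of pigment epithelium, glia and photoreceptors, had the second largest difference of the measured genes: 5207 in the wild-type pool and 4409.9 in the KO-labelled pool, a log2 difference of -0.24. Only 1.67% of measured genes had a lower difference. Slc16a3, the carrier of strongly glycolytic cells, lay below the floor on both arrays, at 60.7 and 59.9.

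Carriers of this family reach the membrane with basigin, and a cone survival factor that acts through basigin speeds glucose uptake. Bsg, which encodes basigin, read 6198 and 5648 (-0.13). Nxnl1, which encodes that factor, read 1703 and 1452 (-0.23), with -0.15 in its other set. Slc16a8, the pigment epithelium carrier MCT3, differed by -0.10, and Slc2a1, the main glucose carrier of the blood-retina barrier, by -0.012. Markers of pigment epithelium, where Slc16a1 and Slc16a8 are both found, were below 0 in 6 of 7 measured genes, of which Slc16a8 is itself 1. Their median was -0.10, with summed intensities of 29534 (wild-type) and 27739 (KO-labelled). Ttr, the 1 marker above 0 (15804 and 16009.5), was the largest part of both sums. The part of pigment epithelium in the carrier values was not tested. In eye cups, fewer cells of a type and less RNA per cell cannot be told apart.

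Among the regulators the signs were mixed. Pfkfb2, one of the bifunctional enzymes that set the level of the activator fructose 2,6-bisphosphate, was lower in all 4 probe sets: the brightest read 1707 and 1610.1 (-0.085) and the dimmest 140.3 and 110.1 (-0.35). Pfkfb3, a hypoxia-responsive relative, read 172 and 179 (0.058), and Pfkfb4 read 190.2 and 194 (0.025). Neither exceeded the SD between sets. Pdk1, the kinase that keeps pyruvate out of mitochondria, depended on the probe set. Its brightest set read 631 and 566 (-0.16), the next 320 and 316 (-0.017), and the third 230.4 and 256 (0.15).

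**Figure D2:**
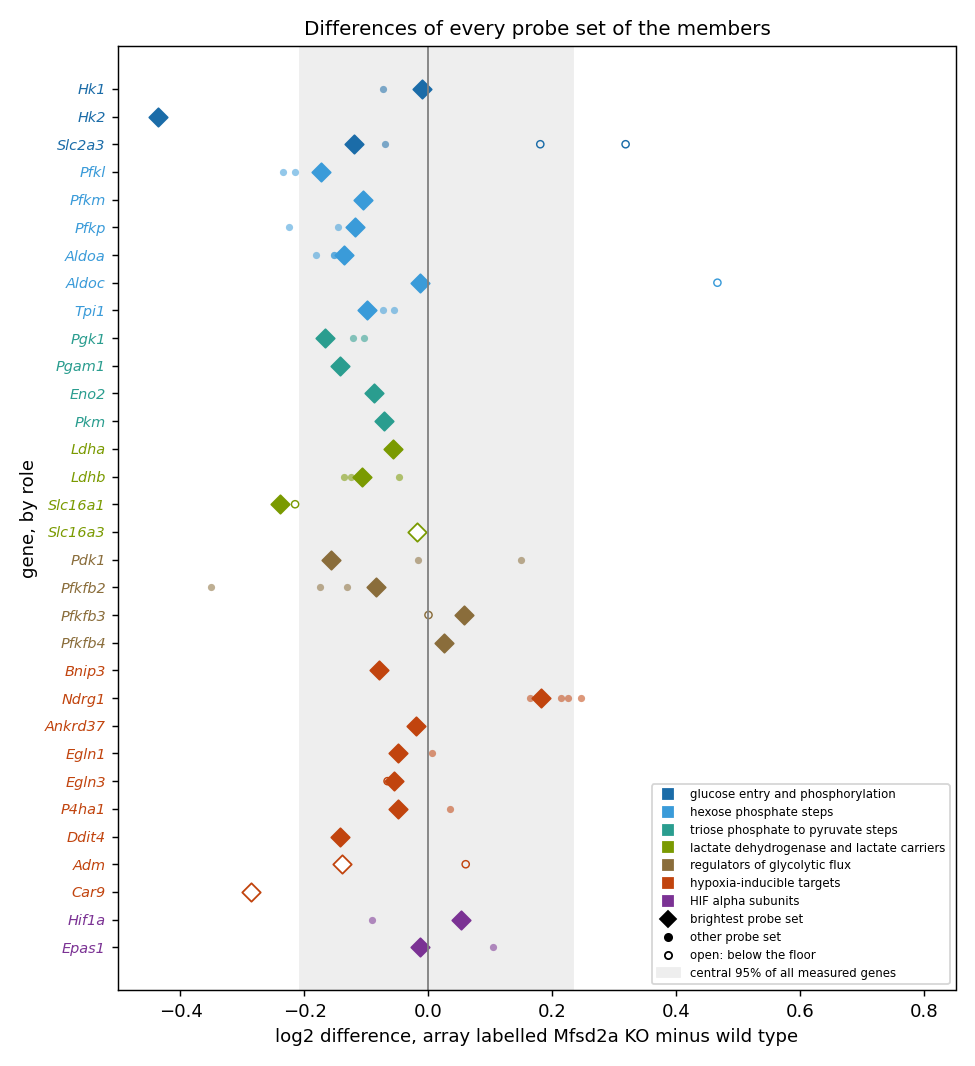
Log2 difference (array labelled Mfsd2a KO minus wild type) for every probe set of each gene, with a diamond for the brightest set, dots for the others and open symbols below the floor; the grey band holds the central 95% of all measured genes, -0.21 to 0.23. Hk2 (-0.44) and Slc16a1 (-0.24) are the measured genes whose diamond lies outside the band, and all 5 sets of Ndrg1 lie to the right of 0.

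Hypoxia-inducible targets outside glycolysis were nearer to 0 than the glycolytic enzymes. Of 7 measured targets 6 were below 0, with a median of -0.050, or 3.40% lower, which became -0.021 when all probe sets of a gene were averaged. Ddit4, an inhibitor of mTORC1 induced by low oxygen and by glucocorticoids, had the lowest value of them: 2184 in the wild-type pool and 1979 in the KO-labelled pool (-0.14). Bnip3, a receptor for mitophagy, read 3313 and 3136 (-0.079). Ddit4 was past the SD between sets and Bnip3 was not, and each was read by 1 set.

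The oxygen sensors and the collagen enzyme differed little. Egln3, a prolyl hydroxylase that HIF itself induces, read 105 and 101 (-0.056). Egln1, the main prolyl hydroxylase, read 1085 and 1048 (-0.049), and its other set differed by 0.0053. P4ha1, a collagen prolyl hydroxylase subunit, read 530 and 512 (-0.050), with 0.035 in its other set. Ankrd37 read 543 and 535 (-0.020). None of these 4 genes exceeded the SD between sets, and Egln1 and P4ha1 had sets of both signs.

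Ndrg1, a stress- and hypoxia-induced gene whose loss causes a demyelinating neuropathy, was the gene of the list with the largest positive difference. Its brightest set read 4159 in the wild-type pool and 4719 in the KO-labelled pool, a log2 difference of 0.18. All 5 of its probe sets were higher, between 0.16 and 0.25. With Ndrg1 left out the median of the measured hypoxia targets was -0.053. Adm, the vasodilator adrenomedullin (81.7 and 74.2), and Car9, a carbonic anhydrase used as a marker of hypoxia (46.0 and 37.7), lay below the floor on both arrays. Their differences were -0.14 and -0.29, and the size of a difference is less certain below the floor.

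The HIF alpha subunits, which are controlled mostly as proteins, differed little as transcripts. Hif1a read 7553 and 7834 (0.053), with 3 of its 4 probe sets above 0. Epas1, which encodes HIF2 alpha and is strong in endothelium, read 2565 and 2541 (-0.014), with 0.10 in its dimmer set.

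The probe sets add readings within the same pools, not more animals. Of 61 sets above the floor 47 were below 0 and 14 above. The share of all sets below 0 was not computed, and genes with many sets weigh more in this count. Counted by gene, 25 of 29 were below 0, beside 42.4% of all measured genes. Of the 15 genes with at least 2 such sets, 9 had all of them below 0, beside 19.2% of all 5201 measured genes with at least 2. Those 9 were Hk1, Pfkl, Pfkp, Aldoa, Tpi1, Pgk1, Ldhb, Slc2a3 and Pfkfb2. Ndrg1 alone had all sets above 0, beside 31.3%. The 5 genes with sets of both signs were Pdk1, Egln1, P4ha1, Hif1a and Epas1.

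**Figure D3:**
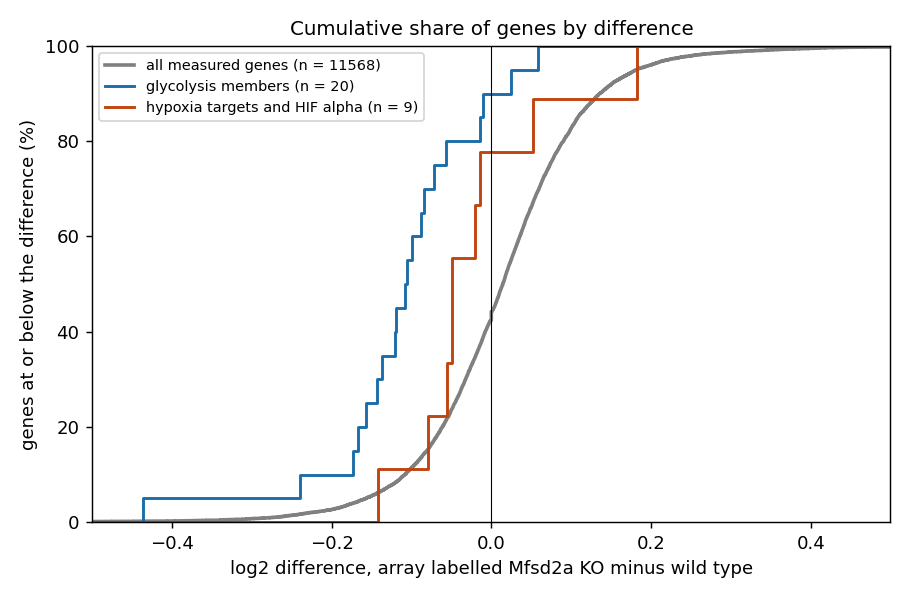
Share of genes (vertical axis, percent) at or below each log2 difference (horizontal axis, array labelled Mfsd2a KO minus wild type) for all 11568 measured genes, the 20 measured glycolysis genes and the 9 measured hypoxia targets and HIF alpha subunits. The glycolysis curve lies left of the curve of all genes, with medians of -0.11 and 0.014, and the hypoxia curve lies between them over much of its range.

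Of the routes next to glycolysis, the glycogen path had most of its genes below 0 and pyruvate entry had most above. Of 11 measured genes of pyruvate entry into mitochondria only 2 were below 0, beside 42.4% of all measured genes, with a median of 0.051. Mpc1, a subunit of the mitochondrial pyruvate carrier, differed by 0.032. The 2 below 0 were Pdha1 (-0.078), a pyruvate dehydrogenase subunit, and Pdk3 (-0.063), a kinase that acts on it. Both are X-linked like Pgk1, but X-linked genes were not counted as a group, and a part of sex make-up was not tested. The pentose phosphate path had 3 of 7 below 0 and a median of 0.0050, and H6pd, its first measured gene, differed by -0.028. The glycogen path had 7 of 10 below 0 and a median of -0.068, with the glycogen synthase gene Gys1 at -0.10. In these 3 lists 0 genes were at least 1.2-fold lower or higher. Other glycolysis isoforms and carriers, listed with related genes such as Bsg and Nxnl1, had 9 of 16 measured genes below 0. Their median was -0.016, also with 0 past 1.2-fold. The measured genes include isoforms of liver and muscle, whereas the testis isoforms of the list lay below the floor. Eno3 (0.039) and Pgam2 (-0.019), the muscle forms of enolase and mutase, stayed within the SD between sets.

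Genes of oxygen sensing and partners of HIF were above 0 in 11 of 14 measured, beside 6454 of all 11568 measured genes. Their median was 0.044, with 0 past 1.2-fold. Vhl, which marks hydroxylated HIF for destruction, differed by 0.0042. Further HIF targets from a second list had 16 of 27 below 0 (59.3%, beside 42.4% of all measured genes) and a median of -0.0067. Some of these genes also stand in the isoform and glycogen lists. Of the 27, 1 was at least 1.2-fold lower, beside 1.17% of all measured genes, and 0 were higher, beside 1.79%. That 1 was Angptl4, a lipoprotein lipase inhibitor that PPARs and HIF both induce, at 187 and 109 (-0.78), from the 1 of its 2 probe sets above the floor. Vegfa, the HIF target that drives vessel growth, read 634 and 660.3 (0.058). This second list thus had genes on both sides of 0, with a median near that of all measured genes but a larger share below 0.

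**Figure D4:**
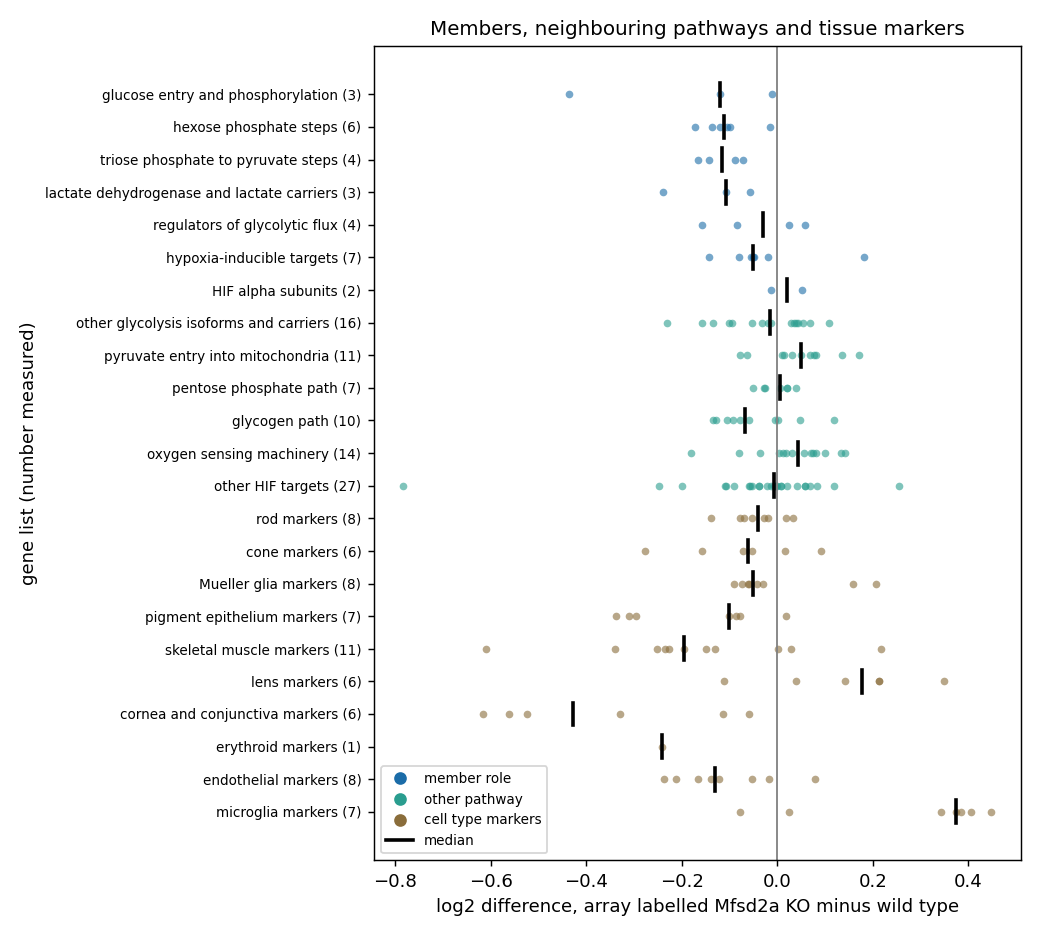
Log2 difference (array labelled Mfsd2a KO minus wild type) of each measured gene (dots) and the median (black bar) for the roles within the list, the neighbouring pathways and the markers of eye tissues. The roles of the glycolytic path have medians between -0.12 and -0.11, regulators -0.030, pyruvate entry 0.051 and muscle markers -0.20.

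Markers of several cell types also differed between the pools, and their part in the glycolysis values was not tested. Of all measured genes 42.4% were below 0. Rod markers, the cells with most retinal glycolysis, were below 0 in 6 of 8 measured genes, with summed intensities of 74869 (wild-type) and 73633 (KO-labelled), and Pde6a had the largest difference (-0.14). Cone markers were below 0 in 4 of 6 (14058 and 13213), with Opn1mw at -0.28. Mueller glia markers were below 0 in 6 of 8 (27648 and 27322), although Slc1a3 was at 0.21. The medians were -0.040 for rods, -0.062 for cones and -0.050 for Mueller glia, beside -0.11 for the glycolysis genes of the list.

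Skeletal muscle, a tissue rich in Aldoa and Pfkm, had 8 of 11 measured markers below 0. Their median was -0.20, with summed intensities of 4408 and 4016. Among the measured markers of that list Pvalb had the largest difference (-0.61, 561 and 368), and which cells of the eye cup gave its signal was not tested. The brightest marker, Acta1 (0.029), and also Myh1 (0.22) and Casq1 (0.0018) were above 0. The part of muscle in the Aldoa and Pfkm values was not tested. Actn3, Myh2 and Myh4 of that list were below the floor. Pigment epithelium markers had a median of -0.10, with Rdh5 at -0.34. Endothelial markers were below 0 in 7 of 8 (median -0.13, summed intensities 3079 and 2899), with Tie1 at -0.24. Cornea and conjunctiva markers were below 0 in 6 of 6 (median -0.43, summed intensities 1218 and 964), with Aldh3a1 at -0.62. Lens markers were above 0 in 5 of 6 (median 0.18, summed intensities 2033 and 2304), with Cryaa at 0.35, and microglia markers in 6 of 7 (median 0.37, summed intensities 2369 and 2739.8), with C1qa at 0.45. Of the erythroid list 1 gene was measured, Alas2 (-0.24). At least 1.2-fold lower were 4 of 6 measured cornea and conjunctiva markers and 3 of 7 of pigment epithelium. The same size was reached by 2 of 11 muscle and 1 of 6 cone markers, beside 1.17% of all measured genes. At least 1.2-fold higher were 5 of 7 microglia and 1 of 6 lens markers, beside 1.79%. The remaining marker lists had 0 past 1.2-fold in either direction. Among the defining markers of the labelled tissue, rod arrestin (Sag) read 18137 and 18569 and the pigment epithelium gene Rpe65 read 3484 and 3301, and 0 markers were listed at an intensity of 0.

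As a check of the labels, the 1 probe set of Mfsd2a read 181 for wild type and 244 for Mfsd2a KO, which is against the direction of a deletion. Where that set lies relative to the deleted part was not analysed here, so it may check nothing, and every direction above rests on the label. The ratio of signal at the 3′ end to that at the 5′ end, a measure of RNA integrity, was 1.49 and 1.44 for beta-actin and 0.973 and 0.942 for Gapdh. Sex make-up, dissection, array handling and genotype cannot be told apart with 1 pool each.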

How the data were processed

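Total RNA from pooled eye cups was hybridised to Affymetrix mouse expression arrays, 1 array per genotype. The authors deposited linear intensities for 45101 probe sets, and the submitters' processing notes name Partek 6.6 and RMA, with settings not given in the sources used here. RMA equalises the arrays and shrinks differences of dim sets.

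Symbols came from the platform annotation. Of the probe sets 34958 carried 1 symbol, 932 several and 9211 none, and 64 were Affymetrix controls. Base 2 logarithms were taken, and differences are the array labelled Mfsd2a KO minus wild type. Genes were counted past 1.2-fold and 1.5-fold, with no p-value, beside the same share of 11568 measured genes. Every member is named, with, of the other pathway lists, the first measured gene and those past 1.2-fold. Of each marker list the gene with the largest difference is named. Other genes of those lists that appear (Bsg, Nxnl1, Slc16a8, Pdha1, Pdk3, Eno3, Pgam2, Sag, Rpe65, Ttr, Acta1, Myh1, Casq1) were chosen with their values known, as were Xist and Uty. The members and lists were chosen with earlier results of these data known. Promoters were RefSeq windows of GRCm38.p6. Steps ran in Python 3.11.15 with pandas 2.3.3, numpy 2.4.6 and statsmodels 0.14.6. Signs and sizes of differences, the 1.2-fold cut and the loess step were tested on simulated data. The planted differences were larger than most of those reported here. The promoter search, the list medians and the SD between sets were not tested in that way.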

Additional observations from a re-analysis of the deposited data

How the results depend on the processing

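No paired analysis was possible because there is only 1 array for each pool. The alternatives were a floor at the 70th percentile or none, averaging all probe sets of a gene, leaving out sets ending in _s_at or _x_at, removing a loess trend (span 0.3, 3 iterations), a pseudocount of 32, and other sizes of difference. The count of genes at least 1.2-fold lower, 1, became 2 with no floor, where Car9 joins Hk2, and 7 at 1.1-fold, where the count of higher genes went from 0 to 1; the 1.1-fold size was chosen after seeing the data. The count of promoter windows with a motif, 39, became 23 with ACGTG alone, a search for fewer motifs. The median of glycolysis genes ran from -0.12 to -0.10 over the 6 other settings, and that of hypoxia targets from -0.066 to -0.021, the latter with the mean of probe sets. With that mean, 21 of 27 measured genes were below 0, and Aldoc (0.23), Slc2a3 (0.077) and Epas1 (0.046) changed sign, where sets below the floor enter for Aldoc and Slc2a3; Pdk1 became -0.046 and Pfkfb2 -0.19. No measured gene of the list changed sign under the other 5 settings, and Ndrg1 and Hk2 kept theirs in all 6. Without sets ending in _s_at or _x_at, 27 genes were measured, and Aldoa and Slc2a3 were not among them.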
